A study of Mus musculus with 12 samples.

Results

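The expression of heat shock and cold-inducible genes was described in subcutaneous CT-26 tumors of mice that swam and of mice that did not. The set held 10 of the 30630 genes listed for each tumor, found by matching mouse Ensembl identifiers to gene symbols in GENCODE release M21. It consisted of 8 heat shock genes (Hspa1a, Hspa1b, Hsph1, Dnajb1, Hsp90aa1, Hspa8, Hspb1 and Hspe1) and 2 cold-inducible genes (Cirbp and Rbm3). Temperature-responsive genes were of interest because the mice swam in water held at 30 ± 2 °C, below body temperature.

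CT-26 is a mouse colon carcinoma line, and in both groups its cells were injected under the skin of the flank of male BALB/c mice bought at 4 to 6 weeks of age. The Swimming group trained for 3 weeks, with 2 sessions a day of up to 30 min on 6 days a week, while the Control group carried tumors without this training. Each group had 10 mice, and RNA from 6 tumors per group was sequenced after removal of ribosomal RNA. Tumor tissue can hold host cells beside the injected line, and neither the tumor temperature nor the time from the last swim to dissection is given in the sources used here.

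Heat and other causes of protein unfolding activate the transcription factor HSF1, which binds heat shock elements near gene starts and switches on chaperones, the proteins that hold and refold other proteins. Hspa1a and Hspa1b encode the stress-inducible Hsp70, whereas Hspa8 encodes its constitutive relative. Cirbp and Rbm3 encode small RNA-binding proteins whose mRNAs are known to go up in mildly cooled mammalian cells.

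The values were FPKM, fragment numbers scaled to transcript length and to the size of the library, but not to differences in library composition. Between tumors they were compared as deposited, with trimmed mean scaling and quantile normalization as alternatives. The sum of FPKM ran from 380139 to 407109 per tumor, and between 22293 and 23974 genes had a value above 0. The depth implied by the smallest values was lowest in control tumor 2, at 0.694 of that in control tumor 1, and the other tumors lay between 0.871 and 1 of it. Transcript profiles of any 2 tumors correlated at r of 0.97 to 0.99 across genes, which are not independent replicates. Among markers of the injected line, Krt20, a keratin of intestinal epithelium, averaged 154 FPKM in Control and 125 in Swimming tumors, and the mesenchymal filament gene Vim averaged 543 and 592 FPKM. The keratin gene Krt8 averaged 29.0 and 6.11 FPKM, with a single Control tumor at 129 FPKM, and Krt18 averaged 10.1 and 9.37 FPKM. Cdh1 (E-cadherin) averaged 0.282 and 0.296 FPKM. Epcam, the epithelial adhesion gene, averaged 0.031 and 0.053 FPKM and did not pass the filter on low values, nor did Cdx2 and Vil1, so 6 of the 9 line markers were tested.

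The clearest difference between the groups was in the inducible Hsp70 genes. Hspa1a averaged 4.72 ± 1.32 FPKM in Control and 8.74 ± 4.09 FPKM in Swimming tumors, and Hspa1b averaged 14.5 ± 6.0 and 26.0 ± 11.1 FPKM (mean ± SD, n = 6 each). Neither difference passed adjustment over all 19018 genes tested. The other 8 genes differed by less, and the cold-inducible genes had group means within the spread of the tumors.

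Hspa1a and Hspa1b are neighbours on chromosome 17 that arose by duplication, and they share most of their sequence. On GRCm38, Hspa1a occupies 34969190 to 34972156 and Hspa1b 34956436 to 34959238, both on the minus strand. Their longest open reading frames were identical at 1918 of 1929 aligned positions (99.4%). Their promoters also differed little, with 247 of 250 bases before the start identical (98.8%). The 250 bases before each start in RefSeq are shown 5′ to 3′ on the gene's strand, because the pair had the largest differences of the set. Capitals mark the letters GAANNTTC or TTCNNGAA, pairs of opposed heat shock element units.
Hspa1a promoter, chr17:34972157-34972406: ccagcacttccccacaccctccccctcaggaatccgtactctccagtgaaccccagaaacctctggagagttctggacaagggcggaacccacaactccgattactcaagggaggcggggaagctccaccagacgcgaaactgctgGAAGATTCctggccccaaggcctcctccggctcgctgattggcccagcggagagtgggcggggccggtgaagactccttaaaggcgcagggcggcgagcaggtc
Hspa1b promoter, chr17:34959239-34959488: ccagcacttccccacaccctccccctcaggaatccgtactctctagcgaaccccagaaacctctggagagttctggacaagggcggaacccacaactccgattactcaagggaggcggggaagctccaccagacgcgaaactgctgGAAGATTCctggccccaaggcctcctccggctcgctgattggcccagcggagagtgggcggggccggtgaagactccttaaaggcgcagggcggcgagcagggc
Both promoters held the same unit pair within the stretch from 115 to 86 bases before the start. One of these unit pairs, each of which reads the same on both strands, occurred in 4218 of 32851 RefSeq windows of the same length (12.8%), so a match by itself is common.

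In Control tumors Hspa1a ran from 3.21 FPKM through a median of 4.56 to 7.07 FPKM. Among Swimming tumors it ran from 3.12 through 8.70 to 13.4 FPKM. The groups overlapped, since 4 Swimming tumors lay above every Control tumor while swimming tumor 5 lay below every Control tumor. The log2 fold change was 0.67 (SE 0.277, 95% interval 0.07 to 1.27) on the log2(FPKM + 1) scale, with p = 0.031 and adjusted p = 0.889 in limma and p = 0.0584 in an exact two-sided permutation test over the 924 divisions of the tumors.

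Hspa1b ran from 9.80 through a median of 13.0 to 26.1 FPKM in Control tumors and from 10.8 through 26.7 to 39.9 FPKM in Swimming tumors. Swimming tumors 1, 2 and 6 lay above all Control tumors, and control tumor 6 stood above the other Control tumors, which reached no more than 14.9 FPKM. The log2 fold change was 0.76 (SE 0.30, 95% interval 0.11 to 1.40), with p = 0.0256 and adjusted p = 0.889 in limma, and the exact permutation p was 0.0519. For both genes 5 of 6 Swimming tumors exceeded the Control median.

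**Figure D1:**
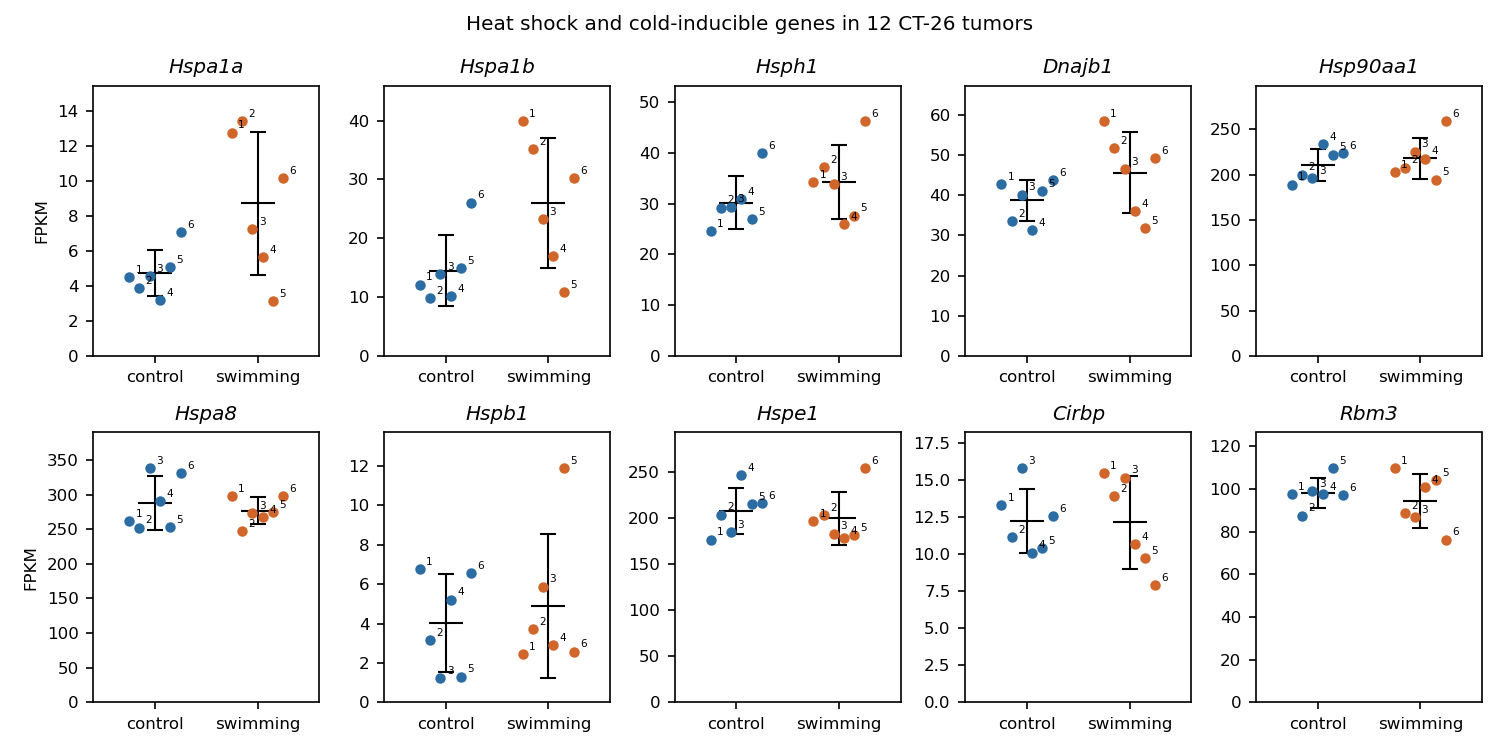
FPKM of the 10 genes in each of the 12 tumors, with the group mean as a horizontal line, 1 SD as bars and tumor numbers beside the points. For Hspa1a, 4 Swimming tumors sit above all Control tumors and swimming tumor 5 sits below them, while the groups overlap for every gene.

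The division of reads between Hspa1a and Hspa1b was uncertain, as 47.1% of the 100-base windows of Hspa1a also occur in Hspa1b and 49.9% of those of Hspa1b occur in Hspa1a. Their summed level depends less on that division, but is not free of it, as their exonic lengths differ (2967 and 2803 bases). Of the Hspa1a windows, 56.5% occur in other genes, 4 in all with Hspa1b among them. The sum averaged 19.2 ± 7.29 FPKM in Control and 34.7 ± 15.1 FPKM in Swimming tumors, with a log2 fold change of 0.76 (SE 0.303), p = 0.0265 in limma and an exact permutation p of 0.0519. Hspa1b exceeded Hspa1a 3.01 ± 0.407-fold in Control and 3.06 ± 0.287-fold in Swimming tumors. Hspa1a further shares 564 of its 2967 exonic bases with Gm20481 on the opposite strand, and the library kit named in the labels does not mark the strand, so reads of these genes cannot be told apart there.

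Set against Hspa8, the inducible pair made up 6.19 ± 1.74% of the FPKM of all 3 genes in Control and 11 ± 4.37% in Swimming tumors. This share was above all Control tumors in 4 Swimming tumors, with an exact permutation p of 0.0411 and 0.247 after Benjamini-Hochberg adjustment over the 6 ratios computed, which were chosen after the values were seen.

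Of the 10 genes, all of which were above 0 in every tumor and passed the filter, Hspa1a and Hspa1b were the 2 with an unadjusted p below 0.05 in limma, both higher in Swimming. Over all genes tested, 1058 (5.56%) met that threshold, 591 (3.11%) higher and 467 (2.46%) lower in Swimming. After Benjamini-Hochberg adjustment 0 of the 19018 genes (0%) passed at 0.05. Fold changes larger in size than that of Hspa1a were found in 97 genes (0.51%), and larger than that of Hspa1b in 66 genes (0.347%). These shares are over all genes tested, of which 12789 averaged at least 1 FPKM, and the pseudocount of 1 shrinks the changes of lower genes. The pair also varied more within groups than most of those 12789 genes (96.6th and 97.2nd percentile of SD). The 2 calls lay near the threshold and could be lost by leaving out 1 tumor. Without control tumor 2, control tumor 4, swimming tumor 1, swimming tumor 2 or swimming tumor 6 the count fell to 0. Without swimming tumor 5 it was 3, with Dnajb1 added. Where the count fell to 0, the log2 fold change of Hspa1a was 0.53 to 0.63 (limma p from 0.0589 to 0.0741). That of Hspa1b was 0.61 to 0.69 (limma p from 0.0532 to 0.0612).

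Among the 10 genes, 6 had a higher and 4 a lower fitted level in Swimming tumors, with a median log2 fold change of 0.11 against 0.0039 over all genes tested. The 8 heat shock genes had a median of 0.19, with 6 higher and 2 lower, and the cold-inducible pair a median of -0.05. For 5 of the 10 the fold change was below 0.1 in size. None of the 10 had groups that did not overlap, a pattern seen in 28 of all genes tested (0.147%).

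**Figure D2:**
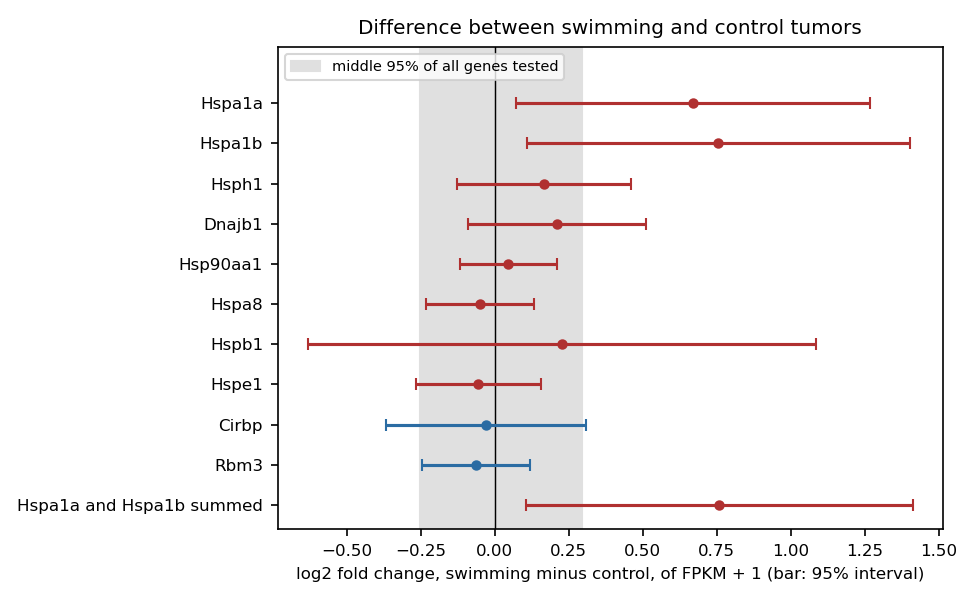
Log2 fold change of FPKM + 1, Swimming minus Control, for the 10 genes and the Hspa1a and Hspa1b sum, with 95% intervals from limma. The grey band holds the middle 95% of all genes tested (-0.25 to 0.29), and the intervals of Hspa1a, Hspa1b and their sum lie above 0.

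Dnajb1 and Hsph1 encode partners of Hsp70: Dnajb1 a J-domain protein that brings clients and stimulates ATP hydrolysis, and Hsph1 (Hsp110) a nucleotide exchange factor. Dnajb1 on chromosome 8 (83608193 to 83612653, plus strand) ran from 31.4 through a median of 40.6 to 43.8 FPKM in Control and from 31.8 through 47.9 to 58.4 FPKM in Swimming tumors. The 4 Swimming tumors with the most Dnajb1 (1, 2, 3 and 6) lay above all Control tumors and were the same 4 as for Hspa1a. Its log2 fold change was 0.21 (SE 0.139), p = 0.155 and adjusted p = 0.907 in limma, and the exact permutation p was 0.199. Its RefSeq promoter held none of the unit pairs, and 203 of its bases are shown because Dnajb1 followed the Hsp70 pair most closely across tumors.
Dnajb1 promoter, chr8:83607972-83608174: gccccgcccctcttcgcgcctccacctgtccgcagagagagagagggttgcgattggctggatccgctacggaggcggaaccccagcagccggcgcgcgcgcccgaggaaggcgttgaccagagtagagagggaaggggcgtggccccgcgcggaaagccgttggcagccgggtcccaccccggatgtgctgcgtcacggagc
The absence of these letters says only that they are not within the 250 bases searched.

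Hsph1 on chromosome 5 (149614287 to 149636376, minus strand) ran from 24.6 through 29.3 to 39.9 FPKM in Control and from 26.0 through 34.0 to 46.2 FPKM in Swimming tumors. Swimming tumor 6 was the highest and the only one above all Control tumors. The log2 fold change of 0.17 (SE 0.136) had p = 0.244 in limma and 0.299 in the exact permutation test.

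Of the 10 genes, 7 had a RefSeq promoter entry, and 5 of these held a unit pair (Hspa1a, Hspa1b, Hsph1, Hspb1 and Hspe1). Hsp90aa1, Hspa8 and Rbm3 had no entry. The sites of the remaining 3 genes are shown in 30 bases each, as examples of how the units differ between genes, on the gene's strand of GRCm38.
Hsph1 site, chr5:149636351-149636380: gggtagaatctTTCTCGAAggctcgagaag
Hspb1 first site, chr5:135887791-135887820: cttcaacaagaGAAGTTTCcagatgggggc
Hspb1 second site, chr5:135887811-135887840: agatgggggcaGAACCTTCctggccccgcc
Hspe1 site, chr1:55088053-55088082: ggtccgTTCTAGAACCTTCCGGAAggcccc
Hspe1 alone held the longer run of 3 units (GAANNTTC followed after any 2 bases by GAA), searched on both strands. It did so as 2 overlapping matches, which together make up the capitals shown. Such a run occurred in 153 of the 32851 windows (0.466%). The genes with unit pairs included both the largest and some of the smallest differences.

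Hspe1 and Hspb1 encode the mitochondrial co-chaperonin Hsp10 and a small heat shock protein that binds unfolded proteins. Hspe1 on chromosome 1 (55088132 to 55091307, plus strand) averaged 207 ± 24.9 FPKM in Control and 200 ± 28.6 FPKM in Swimming tumors, with a log2 fold change of -0.06 (SE 0.0977), p = 0.574 in limma and an exact permutation p of 0.584. Swimming tumor 6 held 254 FPKM, against 178 to 203 FPKM in the other Swimming tumors. Hspd1 (Hsp60), the chaperonin that Hsp10 caps, lies head to head with Hspe1 and averaged 337 and 328 FPKM. The ratio of Hspd1 to Hspe1 was 1.63 ± 0.0295 in Control and 1.66 ± 0.111 in Swimming tumors (exact permutation p = 0.671). The pair overlap by 112 exonic bases on opposite strands.

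Hspb1 on chromosome 5 (135887919 to 135889563, plus strand) was the most variable of the 10 genes, with a highest value 9.57 times the lowest. It ran from 1.25 through a median of 4.19 to 6.75 FPKM in Control and from 2.45 through 3.30 to 11.9 FPKM in Swimming tumors. Swimming tumor 5, which had the least Hspa1a, had the most Hspb1. The log2 fold change of 0.23 had an interval from -0.63 to 1.08, p = 0.578 in limma and an exact permutation p of 0.649, with the lower Swimming median and the higher Swimming mean pointing in opposite directions. Hspb1 shares 44.0% of its 100-base windows with the pseudogene Hsp25-ps1, so its level is uncertain.

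Hspb1 is also abundant in muscle, and its level had positive r with markers of muscle, endothelial cells, fibroblasts and macrophages. Of these, muscle alone passed adjustment, by r but not by rho, and the relation was not particular to muscle. Across the 12 tumors it correlated with the mean log2 level of 15 skeletal muscle genes at r = 0.841 (permutation p = 0.00079, adjusted over 33 relations 0.0261) and rho = 0.755 (permutation p = 0.00595, adjusted 0.196). Within groups r was 0.839 in Control and 0.856 in Swimming tumors, and without control tumor 6 and swimming tumor 5 it was 0.723. Markers of endothelial cells (r = 0.763, permutation p = 0.00329, adjusted 0.0543), fibroblasts (r = 0.733, permutation p = 0.00639, adjusted 0.0703) and macrophages (r = 0.698, permutation p = 0.011, adjusted 0.0908) also had positive r with Hspb1, which without the 2 tumors farthest from the median was 0.547, 0.499 and 0.243. Their rho was 0.615, 0.706 and 0.51 (permutation p = 0.037, 0.0124 and 0.0929, adjusted 0.244, 0.205 and 0.341). Within Control and Swimming tumors r was 0.708 and 0.828 for endothelial cells, 0.633 and 0.861 for fibroblasts, and 0.57 and 0.857 for macrophages. The 33 relations joined Hspb1, the Hspa1a and Hspa1b sum and Cirbp, chosen after their values were seen, to 11 marker lists. The summed FPKM of all 17 genes of the muscle list ran from 59.0 to 316 in Control and from 72.4 to 421 in Swimming tumors. Eno3 alone ran from 55.5 to 74.5 and from 50.2 to 76.8 FPKM, so it made up most of the lowest sums. Acta1 ran from 0.362 to 88.2 and from 0.122 to 119 FPKM. Of the 15 genes tested, 13 were higher in Swimming and 0 had an unadjusted p below 0.05 in limma. The part of muscle or other host cell RNA in the Hspb1 values was not tested.

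Hspa8 and Hsp90aa1, the constitutive Hsp70 and the stress-responsive Hsp90, were the most abundant of the 10 genes. Hspa8 on chromosome 9 (40800984 to 40810087, plus strand) ran from 252 through 276 to 339 FPKM in Control and from 248 through 274 to 298 FPKM in Swimming tumors, with a log2 fold change of -0.05 (95% interval -0.23 to 0.13) p = 0.57 in limma and an exact permutation p of 0.589. Hsp90aa1 on chromosome 12 (110690605 to 110702728, minus strand) ran from 189 through 211 to 234 FPKM and from 195 through 213 to 259 FPKM, with a log2 fold change of 0.05 (95% interval -0.12 to 0.21) p = 0.558 in limma and an exact permutation p of 0.563. The groups overlapped for both genes, with swimming tumor 6 highest in Hsp90aa1. Other genes share 28.5% of the 100-base windows of Hspa8 and 38.0% of those of Hsp90aa1.

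The cold-inducible genes had closely similar levels in both groups. Cirbp on chromosome 10 (80165985 to 80172786, plus strand) ran from 10.1 through 11.9 to 15.8 FPKM in Control and from 7.91 through 12.3 to 15.5 FPKM in Swimming tumors. Rbm3 on chromosome X (8138975 to 8145880, minus strand) ran from 87.6 through 97.7 to 110.0 FPKM in Control and from 76.3 through 94.8 to 109.7 FPKM in Swimming tumors. No Swimming tumor exceeded the highest Control tumor for Cirbp, and 2 Swimming tumors lay below all Control tumors for each gene. The log2 fold changes were -0.03 for Cirbp (95% interval -0.37 to 0.31, limma p = 0.846, exact permutation p = 0.857) and -0.06 for Rbm3 (95% interval -0.25 to 0.12, limma p = 0.465, exact permutation p = 0.498). These intervals leave room for a change of up to 0.31 or down to -0.37 in Cirbp. Rbm3 shares 94 exonic bases with the antisense gene Rbm3os. The RefSeq promoter of Cirbp held none of the unit pairs.

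In level, Hspa8 stood first in the Control tumors, followed by Hsp90aa1, Hspe1, Rbm3, Dnajb1, Hsph1, Hspa1b, Cirbp, Hspa1a and Hspb1. Neighbours in this order whose Control means lay within 1 SD of each other were Hsp90aa1 and Hspe1, Hspa1b and Cirbp, and Hspa1a and Hspb1. Hspa8 ranked at the 98.9th percentile of all tested genes and Hspb1 at the 55.0th. The most abundant genes were the steadiest, as the within-group SD on the log2 scale lay at the 42.9th percentile of 12789 genes of at least 1 FPKM for Hsp90aa1 and at the 51.9th for Hspa8, against the 96.6th for Hspa1a, the 97.2nd for Hspa1b and the 98.7th for Hspb1.

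**Figure D3:**
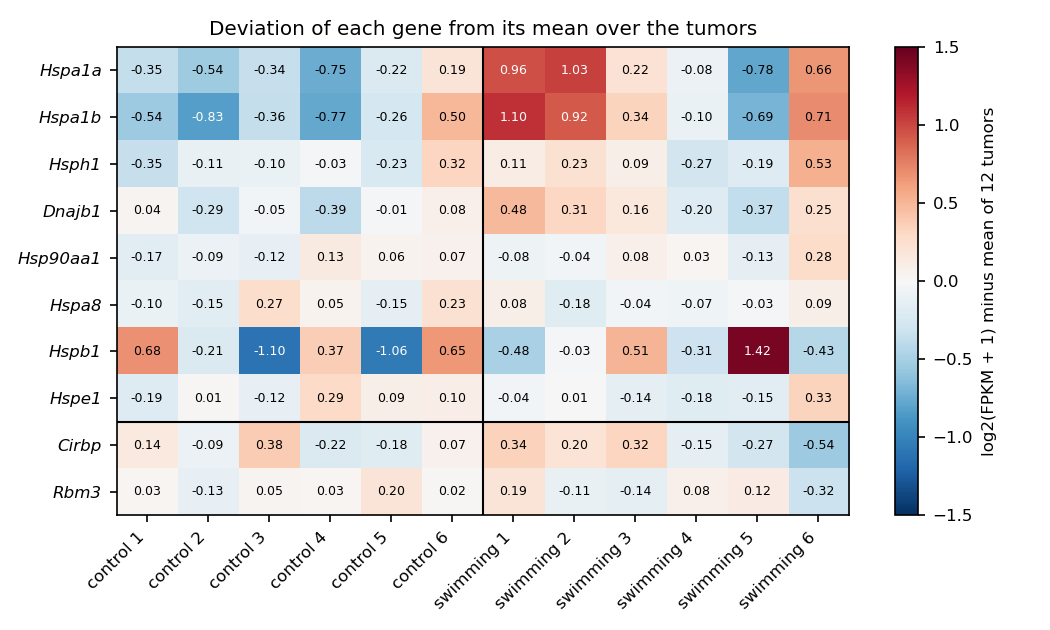
Deviation of log2(FPKM + 1) from each gene's mean over the 12 tumors, by gene and tumor. Hspa1a, Hspa1b and Dnajb1 deviate upward together in swimming tumors 1, 2, 3 and 6 and in control tumor 6. They deviate downward in swimming tumor 5, where Hspb1 has the largest deviation of the map (1.42).

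The 10 genes did not vary as 1 block across tumors. Of 45 gene pairs correlated over the 12 tumors, 3 passed at an adjusted p of 0.05 by both Pearson's r and Spearman's rho, and these were the pairs among Hspa1a, Hspa1b and Dnajb1. Hspa1a and Dnajb1 correlated at r = 0.928 (permutation p = 1e-05, the smallest that 100000 permutations can give, adjusted 0.000225) and rho = 0.923 (permutation p = 5e-05, adjusted 0.00112). Within groups r was 0.853 in Control and 0.957 in Swimming tumors, and without swimming tumors 1 and 2 it was 0.887. For Hspa1b and Dnajb1 r was 0.910 (permutation p = 7e-05, adjusted 0.00105) and rho 0.909 (permutation p = 0.00019, adjusted 0.00285), with 0.741 and 0.985 within groups and 0.835 without the same 2 tumors.

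Hspa1a and Hspa1b, which share reads, had r = 0.976 (permutation p = 1e-05, adjusted 0.000225) and rho = 0.958, with 0.956 and 0.991 within groups and 0.964 without swimming tumors 1 and 2. Hsp90aa1 and Hspe1 passed by r alone at 0.775 (permutation p = 0.00253, adjusted 0.0285), with rho = 0.699 (permutation p = 0.0137, adjusted 0.154). Their r was 0.954 in Control and 0.739 in Swimming tumors and 0.559 without control tumor 1 and swimming tumor 6. Over the 28 pairs of heat shock genes the median r was 0.176, with a range from -0.296 to 0.976.

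The cold-inducible genes did not move together beyond the error of 12 tumors. Cirbp and Rbm3 had r = 0.255 (adjusted permutation p = 0.799), with -0.089 in Control and 0.363 in Swimming tumors and -0.291 without the 2 tumors farthest from the Cirbp median. Their ratio was 8.23 ± 1.58 in Control and 8.16 ± 2.03 in Swimming tumors. The 16 pairs of a heat shock and a cold-inducible gene had r from -0.617 to 0.445 with a median of -0.14.

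**Figure D4:**
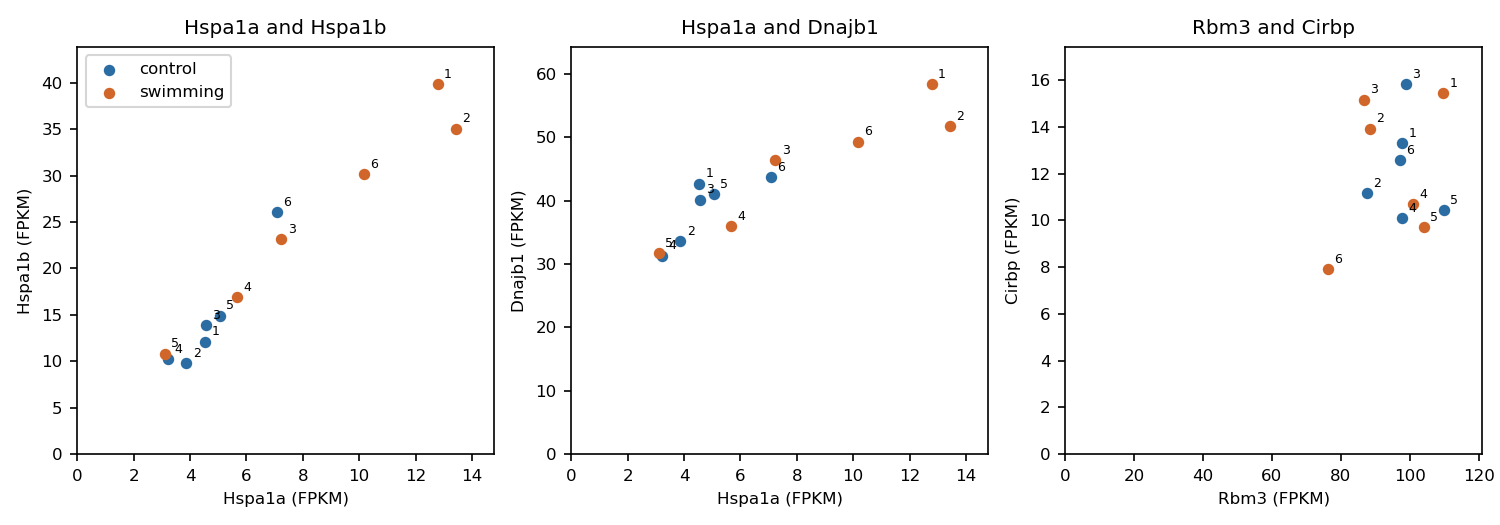
FPKM of Hspa1b and Dnajb1 against Hspa1a and of Cirbp against Rbm3 in the 12 tumors, numbered within their group. The points of the first and second panels follow a rising band shared by both groups (r of 0.976 and 0.928), and those of the third panel do not (r of 0.255).

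Genes with the pattern most like Hspa1a were ranked among 12565 genes by the correlation of their deviations from the group means over the 12 tumors. Apart from Hspa1b (0.964) and Dnajb1 (0.930), the closest were Snd1 (0.940), Sox9 (0.914) and Soat2 (0.910). For Cirbp the closest were Calcoco1 (0.917), R3hcc1 (0.915) and H3f3b (0.902). These are descriptions of rank over 12 tumors only, with no test.

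The wider chaperone network was followed in 9 lists holding 86 genes, of which 85 were in the files and 78 passed the filter. In this network 40 genes were higher and 38 lower in Swimming tumors, with a median log2 fold change of 0.0022. At an unadjusted p below 0.05 in limma there were 0 higher and 2 lower genes (2.56% of 78), beside 5.56% of all genes. Hspa9, the mitochondrial Hsp70, averaged 350 ± 32.7 FPKM in Control and 313 ± 23.4 FPKM in Swimming tumors, with a log2 fold change of -0.16, p = 0.0437 and adjusted p = 0.889 in limma and an exact permutation p of 0.0498. Bag5, a nucleotide exchange factor of Hsp70, averaged 22.1 ± 1.6 and 20.3 ± 0.995 FPKM, with a log2 fold change of -0.12, p = 0.0491 and adjusted p = 0.889 in limma and an exact permutation p of 0.0455.

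Hsf1 itself averaged 6.09 ± 0.579 FPKM in Control and 6.30 ± 1.12 FPKM in Swimming tumors, with a log2 fold change of 0.03, p = 0.721 in limma and an exact permutation p of 0.762. Of 4 heat shock factor genes tested, including the factor's binding protein, 2 were higher and 2 lower, and the smallest p was that of Hsf4 (log2 fold change -0.10, limma p = 0.345, exact permutation p = 0.37). The 9 other Hsp70 and Hsp110 genes had a median of -0.01, with 4 higher and 5 lower. Hspa1l, a testis-enriched neighbour of Hspa1a named after its values were seen, averaged 2.12 ± 0.414 and 2.51 ± 0.218 FPKM (log2 fold change 0.18, limma p = 0.0683, exact permutation p = 0.0714), and all 6 Swimming tumors exceeded its Control median. It shares 1778 of its 2472 exonic bases with the antisense gene Gm10501, so its level is uncertain.

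Co-chaperones of Hsp70 were evenly split. Of 16 other J-domain genes 9 were higher and 7 lower, and Dnaja3, a mitochondrial member, had the smallest p (19.6 against 17.1 FPKM, log2 fold change -0.19, limma p = 0.0531, exact permutation p = 0.0887). Nucleotide exchange factors were higher in 3 and lower in 4 of 7 genes. Bag3, an HSF1-induced exchange factor also named after its values were seen, averaged 18.7 and 21.4 FPKM (log2 fold change 0.19, limma p = 0.0687, exact permutation p = 0.102).

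Hsp90 genes and co-chaperones were higher in 5 and lower in 8 of 13 genes, and the chaperonins, which fold proteins inside a closed chamber, in 4 and 5 of 9. The smallest p values were those of St13, an Hsp70 and Hsp90 adaptor (0.07, p = 0.209 and 0.184), and Cct7, a chaperonin subunit (0.06, p = 0.253 and 0.216), each given as the log2 fold change with its limma and exact permutation p. Small heat shock genes were higher in 6 and lower in 3 of 9, with a median of 0.07 and Hspb9 (log2 fold change 0.18, limma p = 0.115, exact permutation p = 0.158) first by p. Hspb9 lay near the floor, averaging 0.191 FPKM in Control and 0.354 FPKM in Swimming tumors, with a lowest Control value of 0. Other heat-inducible genes were higher in 4 and lower in 1 of 5, with a median of 0.06. Relatives of the cold-inducible genes, RNA-binding and cold shock domain genes, were higher in 3 and lower in 3 of 6, with Ybx3 at 134 and 122 FPKM (log2 fold change -0.13, limma p = 0.101, exact permutation p = 0.134).

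**Figure D5:**
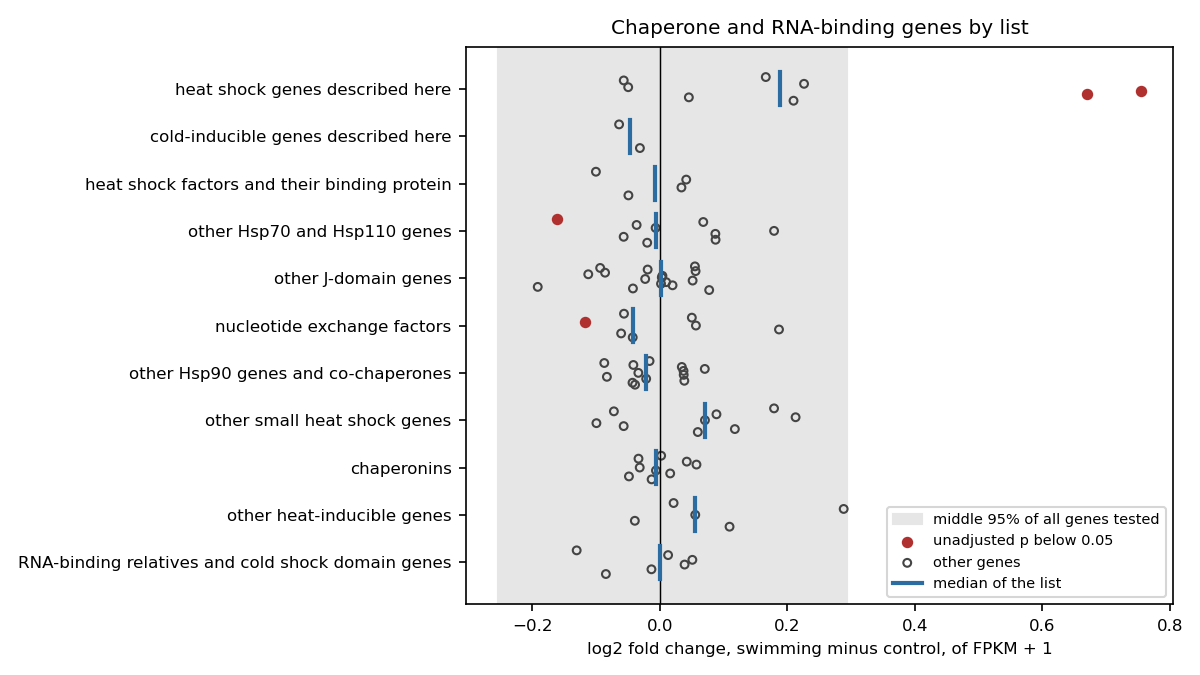
Log2 fold change of FPKM + 1, Swimming minus Control, of each tested gene in 11 lists, with the list median as a blue bar and genes at an unadjusted limma p below 0.05 filled. Hspa1a and Hspa1b are the 2 filled points to the right of the grey band, which holds the middle 95% of all genes tested, and Hspa9 and Bag5 are the 2 filled points on the left.

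Markers of other cells and states were read beside these results. T cell markers were higher in Swimming in 5 of 5 genes, 3 of them (Cd3d, Cd3g and Cd8a) at an unadjusted p below 0.05 in limma, beside 3.11% of all genes tested, with an adjusted p of 0.889 for each. Their summed FPKM ran from 2.21 to 5.83 in Control and from 4.30 to 10.7 in Swimming tumors. The Hspa1a and Hspa1b sum correlated with the T cell markers at r = 0.089 (permutation p = 0.78, adjusted 0.888) and rho = 0.175 (permutation p = 0.586, adjusted 0.838). Over the 11 lists r with this sum ran from -0.465 for macrophage markers (permutation p = 0.129, adjusted 0.524) to 0.312 for immediate early genes (permutation p = 0.323, adjusted 0.736). Their rho was -0.636 (permutation p = 0.0293, adjusted 0.242) and 0.42 (permutation p = 0.176, adjusted 0.528). No list had an adjusted p below 0.05 by r or rho. Immediate early genes, which cells switch on within minutes of a stimulus, summed to 293 to 380 FPKM in Control and 258 to 398 FPKM in Swimming tumors. Within groups, with 6 tumors each and no test, r with the Hspa1a and Hspa1b sum was -0.0094 in Control and 0.896 in Swimming tumors for immediate early genes, -0.562 and -0.905 for dividing cells, and -0.167 and -0.895 for fibroblasts. It was -0.524 and -0.842 for macrophages, -0.119 and -0.808 for adipocytes, 0.419 and -0.788 for skeletal muscle, and -0.213 and -0.642 for T cells. For the other 4 lists it lay between -0.236 and 0.0340 in Control and between -0.628 and 0.371 in Swimming tumors. Swimming tumor 5 had the least of this sum in its group (13.9 FPKM). It also had that group's highest mean level of dividing cell, fibroblast, macrophage, adipocyte, muscle and T cell markers. Without the 2 tumors farthest from the list median, swimming tumor 5 among them, r was -0.313 for dividing cells and -0.168 for fibroblasts. Likewise r was -0.750 for macrophages, 0.147 for adipocytes, -0.190 for skeletal muscle and 0.188 for T cells. Dividing cell markers summed to 534 to 623 FPKM in Control and 535 to 693 FPKM in Swimming tumors, fibroblast markers to 186 to 789 and 221 to 757 FPKM, and macrophage markers to 669 to 1003 and 788 to 1163 FPKM. No marker list had a gene at 0 in all tumors. The part of these cells and states in the Hsp70 values was not tested, and in bulk tumors fewer cells of a type cannot be told apart from less RNA per cell.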

How the data were processed

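RNA of 12 tumors, 6 of each group, was sequenced from total RNA after ribosomal RNA removal. The authors deposited 1 table of FPKM per gene and tumor. Per the submitters' notes HISAT2 2.0.5 and StringTie 1.3.3 were among the tools, and hg38 and GRCm38 are both named as builds, although every identifier is of mouse. Coordinates were therefore taken by identifier from GENCODE M21 (GRCm38), in which 30578 of the 30630 genes were found. Read counts and total depths were not used here, as the deposited values are FPKM, so no counting interval is given, and the read length and the strand setting of the read assignment are not given in the sources used here.

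Values were tested as log2(FPKM + 1) with limma 3.58.1 (R 4.3.3, trended eBayes), keeping genes of at least 0.1 FPKM in at least 6 tumors, with Benjamini-Hochberg adjustment over all 19018 genes tested. The pseudocount understates fold changes of low genes. Single values were tested by the exact two-sided permutation test over 924 divisions (smallest possible p 0.00216), and correlations by 100000 permutations. The fit was tested on simulated data. Marker scores were the mean over a list's tested genes of log2(FPKM + 1).

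Groups and tumor numbers came from the labels, which give 1 tumor per sample, and p-values measure the spread between these tumors. Tumors of the same number came from different mice, and their deviations from the group means correlated at -0.32 to 0.0059, so numbers were not used as pairs.

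The genes described and all lists were chosen with earlier results of these data known. From the chaperone lists, genes named were those at an unadjusted p below 0.05 or, where a list had none, the gene of smallest p, except 1 gene of the heat-inducible list that is not reported here. Hspd1, Hsf1, 6 markers of the line and the 3 genes most like Hspa1a and Cirbp were always named, and Hspa1l, Bag3, Atf3 and Mki67 were added after their values were seen, as were the ratios and the checks of shared sequence and promoters. Promoter sequences came from RefSeq (GRCm38.p6). Alternatives were pseudocounts of 0.1 and 0.01, other filters, scalings and fits, a replicate block and leaving out each tumor.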

Additional observations from a re-analysis of the deposited data

Results flagged for a closer look

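Single tumors stood apart from the other 5 of their group in 6 of the 34 groups of 6 values examined. The measure was Dixon's ratio of the gap to the range, on values that were not log-transformed. For normally distributed values chance gives about 1 in 20 groups, or 1.7 here. Skewed values such as FPKM can give more, so the count of 6 is not set against chance. The sets of values are not independent, since Hspa1b is part of a sum and Hspe1 part of a ratio.

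Control tumor 6 held 26.1 FPKM of Hspa1b, against 9.80 to 14.9 FPKM in the other Control tumors, and 33.1 FPKM of Hspa1a and Hspa1b summed, against 13.4 to 20 FPKM. Swimming tumor 5 held 11.9 FPKM of Hspb1, against 2.45 to 5.89 FPKM in the other Swimming tumors. Swimming tumor 6 held 254 FPKM of Hspe1, against 178 to 203 FPKM. In the same tumor the ratio of Hspd1 to Hspe1 was 1.45, against 1.65 to 1.75 in the other Swimming tumors, and in control tumor 4 it was 1.57, against 1.63 to 1.65 in the other Control tumors.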

How the results depend on the processing

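Of the 10 genes, 2 had an unadjusted p below 0.05 under each of 9 other settings, and between 0 and 3 when 1 tumor was left out. The count was 0 without control tumor 2, control tumor 4, swimming tumor 1, swimming tumor 2 or swimming tumor 6, and 3 without swimming tumor 5, where Dnajb1 had a log2 fold change of 0.31. The log2 fold change of Hspa1a ran from 0.53 to 0.89 without 1 tumor (limma p from 0.00126 to 0.0741) and that of Hspa1b from 0.61 to 0.97 (limma p from 0.00245 to 0.0612), lowest without swimming tumor 2 and swimming tumor 1 and both highest without swimming tumor 5. Under the other settings they ran from 0.66 to 0.76 and from 0.71 to 0.80. Adjusted p for both stayed above 0.66 throughout.

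Small differences changed sign, namely Hsp90aa1 (-0.0052 without swimming tumor 6, up to 0.077 without swimming tumor 5), Hspb1 (-0.035 without swimming tumor 5, up to 0.39 without control tumor 1) and Cirbp (0.011 with sample weights, 0.041 without control tumor 3, 0.020 without swimming tumor 5 and 0.074 without swimming tumor 6, down to -0.10 without swimming tumor 1), and the cause was not tested. Over all genes the count at an unadjusted p below 0.05 was 1058, between 729 and 1445 under other settings and between 820 and 1427 without 1 tumor. After adjustment 0 genes passed, except for 1 gene with sample weights, 3 without control tumor 4 and 2 without swimming tumor 1. With the tumor number as a block, which pairs no mice, 892 genes had an unadjusted p below 0.05, with Hspa1a and Hspa1b at a limma p of 0.028 and 0.0255, and none of the other 8 genes described crossed that threshold. With 6 tumors a group and no counts, differences of the size of those in Dnajb1 or Cirbp lay within the intervals and were not resolved.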

Other observations

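Among the marker lists, 2 further genes with an unadjusted p below 0.05 in limma were seen in the same tumors and were chosen after their values were seen. Over all genes tested 5.56% met that threshold. Atf3 was 1 of 13 immediate early genes, of which 3 were higher and 10 lower in Swimming tumors (median log2 fold change -0.09). Mki67 was 1 of 11 genes of dividing cells, of which 8 were higher and 3 lower (median 0.07). Atf3, a stress-induced transcription factor, averaged 2.71 ± 0.352 FPKM in Control and 3.91 ± 1.07 FPKM in Swimming tumors, with a log2 fold change of 0.38 (SE 0.139), p = 0.0167 and adjusted p = 0.889 in limma, and an exact permutation p of 0.0346. Mki67, a gene of dividing cells, averaged 39.1 ± 5.77 FPKM in Control and 48.3 ± 5.85 FPKM in Swimming tumors, with a log2 fold change of 0.30 (SE 0.103), p = 0.0119 and adjusted p = 0.889 in limma, and an exact permutation p of 0.0216. Atf3 ran from 2.07 to 3.07 FPKM in Control and from 2.38 to 5.06 FPKM in Swimming tumors, and Mki67 from 30.7 to 45.5 and from 42.0 to 56.4 FPKM, so the groups overlapped for both genes.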
